A study of Drosophila melanogaster with 73 samples.

Results

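Abdominal fat bodies in which the PntP1 transgene had been induced were compared with induced fat bodies of flies that did not carry it. The libraries were chosen by their labels. Of 70 libraries with a column in the deposited count tables, 18 were fat body libraries of adult Drosophila melanogaster females fed the inducer, 10 with PntP1 and 8 without. Those with PntP1 came from PntP1 flies (n = 2), Foxo+PntP1 flies (n = 2), AopACT+PntP1 flies (n = 3) and Foxo+AopACT+PntP1 flies (n = 3). Those without came from Foxo flies (n = 3), AopACT flies (n = 2) and Foxo+AopACT flies (n = 3).

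Every fly of both groups carried the S106 GeneSwitch driver in the w1118 Dahomey background, had been mated for 48 h, and was fed 200 µM RU486 for 6 days. The GeneSwitch protein turns on UAS transgenes only when it binds RU486, and S106 drives it in the gut as well as in the fat body, so each transgene was induced in both organs of the same animals. Neither a genotype with the driver alone nor one without transgenes was among the libraries analysed here. The libraries without PntP1 therefore all expressed Foxo, AopACT or both, and the genotype with PntP1 alone had no partner that lacked only PntP1. Organs of several flies were pooled for each library, so p-values measure the spread between such pools. Fat body here means the abdomen after removal of the gut and the reproductive organs, so it held the body wall with its muscle and other cells as well as adipose tissue.

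Pnt and Aop are ETS factors that bind the same DNA motif with opposite effects. Pnt activates transcription at the end of the Ras/MAPK cascade, Aop (also called Yan) represses, and MAPK phosphorylation relieves the repression; the P1 isoform of Pnt activates without needing that signal, and AopACT is a form of the repressor that stays active. Foxo is the forkhead factor that enters the nucleus when insulin signalling is low. The fat body is the organ in which flies store lipid and glycogen, make yolk proteins and lipoproteins, and secrete immune peptides into the haemolymph.

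Total counts of the 18 libraries lay between 1138812 and 4111251 reads (median 2905647), and the lowest chi-square per degree of freedom between replicates of a group was 10.1 over 15 induced pairs, so each library was kept as a replicate. Levels are given as CPM, the reads of a gene scaled to a fixed library total. Mitochondrially encoded transcripts held 2.98% to 15.4% of counts with PntP1, the highest being AopACT+PntP1 replicate 1, and 4.94% to 13.0% without. Among the uninduced libraries, the one labelled Foxo+PntP1 replicate 1 stood apart, with pnt at 114 CPM where the next library had 22.1 CPM. For 2 library numbers the labels of the organs were crossed. One number is labelled Foxo+PntP1 induced in the gut (replicate 1) and Foxo uninduced in the fat body (replicate 1), and the other the reverse. For the first number the pnt level of each organ followed its own label, at no less than 157 CPM in the gut library and at 12.6 CPM in the fat body library. The fat body library of the other number had no column, so its label could not be checked in this way. The pnt level of its gut library is not given here. None of the 18 induced fat body libraries was among them. Of 12 fat body markers, 10 had reads in each of the 18 libraries, and their summed level lay between 65040 and 204600 CPM with PntP1 (median 86340) and between 26710 and 115000 CPM without (median 46280), with AopACT flies lowest at 26710 and 32550 CPM; its part in the differences described here was not tested. In mRNA from a whole tissue, fewer cells of a type and less RNA per cell cannot be told apart. Markers of the female germline, whose organs had been removed, were also present, with 14 of 15 seen in each library and a summed level of 292.5 to 2933 CPM with PntP1 and 860.2 to 3677 CPM without.

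Of 9279 genes tested, 44 differed between induced fat bodies with and without PntP1 at an adjusted p under 0.1 (edgeR quasi-likelihood test, Benjamini-Hochberg). With PntP1, 34 genes were higher (0.366% of those tested) and 10 were lower (0.108%). Rose and fell are used below for these directions, with PntP1 beside without it among induced libraries only. Unadjusted p-values under 0.05 were held by 282 genes that were higher and 144 that were lower. Beside pnt itself, the genes that rose included edl, an ETS regulator, the lysosomal enzymes Ids and CtsL3, the Bomanin BomBc3 and the basement membrane gene Glt, and those that fell included the serine proteases CG7142 and Jon25Biii and the UDP-glycosyltransferase Ugt37A3. The 2 sets of libraries did not overlap for 10 of the 9279 genes (0.108%), and 9 of these were among the genes that rose, namely pnt, edl, Ids, CG12224, CG3397, CG18547, CG30083, Glt and Atet, while the tenth, Pka-R1, did not pass the test. DESeq2 called 140 genes (101 higher, 39 lower) with all 44 among them, whereas limma voom with quality weights called 102 (40 higher, 62 lower) with 36 of the 44 among them. Leaving out one library in turn changed the sign of none of the 44 where they could be tested (Jon65Aii and CG11912 passed the filter on low counts in 15 of 18 omissions, the others in 18) and gave between 18 and 64 calls, the fewest without AopACT replicate 3, with 24 without AopACT replicate 2 and 27 without Foxo+AopACT+PntP1 replicate 3. A set of 16 genes (13 higher, 3 lower) was called whichever library was left out.

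Reads of pnt (FBgn0003118, chromosome arm 3R, 23290231 to 23346167), which can come from the transgene or from the fly's own gene, served as the check of the labels. With PntP1 its level lay between 53.6 and 213 CPM (median 118) over 10 libraries, and without PntP1 between 15.2 and 30.4 CPM (median 22.9) over 8. No library with PntP1 fell to the level of any library without it, and the log2 fold change was 2.27 ± 0.23 (SE, edgeR adjusted p = 6.2e-05). Among the 4 genotypes with PntP1, pnt was lowest in Foxo+PntP1 flies, at 58.7 and 89.2 CPM, and in the first of the Foxo+AopACT+PntP1 replicates, at 53.6 CPM. It was highest in PntP1 flies, at 154 and 213 CPM. Reads of aop, which lay at 50.5 to 96.1 CPM with PntP1 and 53.0 to 121 CPM without, gave a log2 difference of -0.21 ± 0.12 (SE), and those of foxo, at 51.8 to 129 CPM with PntP1 and 44.4 to 149 CPM without, one of 0.02 ± 0.27 (SE). Neither passed the test.

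Of the 8 members of the ETS family list that were tested, edl was the only other one called. Its product, ETS-domain lacking, is a SAM-domain protein without a DNA-binding domain that binds Aop and antagonises it. The level of edl lay between 16.8 and 212 CPM with PntP1 (median 87.8) and between 2.41 and 16.5 CPM without (median 11.4). The ranges all but touched, with Foxo+AopACT+PntP1 replicate 1 just above the highest library without PntP1, Foxo replicate 3. The log2 fold change was 2.35 ± 0.34 (SE, adjusted p = 0.0035). The genotypes with PntP1 were spread widely, since PntP1 flies had 145 and 212 CPM, Foxo+PntP1 flies 55.5 and 102 CPM, AopACT+PntP1 flies 86.8, 88.8 and 91.7 CPM, and Foxo+AopACT+PntP1 flies 16.8, 31.5 and 50.8 CPM.

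Ids (FBgn0035445, 3L, 3378268 to 3380083) encodes iduronate 2-sulphatase, which in mammals breaks down heparan and dermatan sulphate in lysosomes. It had 15.0 to 76.6 CPM in libraries with PntP1 (median 36.2) and 0.312 to 4.69 CPM in those without (median 1.91). The ranges were well apart, and the log2 fold change was 4.12 ± 0.42 (SE, adjusted p = 6.2e-05). In AopACT flies Ids was at 0.93 and 0.80 CPM, among the lowest, and in AopACT+PntP1 flies it reached 30.6, 56.4 and 76.6 CPM. CtsL3 (FBgn0037396, 3R, 6025826 to 6027238), a cathepsin L-like cysteine protease, had 12.5 to 60.1 CPM with PntP1 (median 25.1) and 2.41 to 14.9 CPM without (median 3.89). All but one of the libraries without PntP1, Foxo+AopACT replicate 3, lay below every library with it (log2 fold change 2.45 ± 0.32, SE, adjusted p = 0.0011).

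Npc2h, of the family that binds sterols and other lipids in its human member NPC2, was chosen after its values were seen. It had 104 to 474 CPM with PntP1 (median 222) and 47.3 to 145 CPM without (median 69.6), with a log2 fold change of 1.46 ± 0.28 (SE, adjusted p = 0.034). Of 6 Npc2 genes tested, it was the only one called, and 3 of the 6 were above 0. CG11425, of the membrane phosphatidate phosphatase family, had 4.55 to 46.2 CPM with PntP1 (median 22.5) and 0 to 5.35 CPM without (median 0.749). Its ranges overlapped through the library Foxo+AopACT replicate 2, and its log2 fold change was 3.81 ± 0.59 (SE, adjusted p = 0.0065). CG8157 had 0 to 31.4 CPM with PntP1 (median 8.24) and 0 to 2.93 CPM without (median 0.467), with a log2 fold change of 3.36 ± 0.55 (SE, adjusted p = 0.0099).

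Several genes of secreted or membrane proteins rose as well. Glt, the basement membrane glycoprotein glutactin, also chosen after its values were seen, had 365 to 1219 CPM with PntP1 (median 531) and 40.0 to 337 CPM without (median 161). The ranges did not overlap, and the lowest, 40.0 and 63.2 CPM, were those of AopACT flies (log2 fold change 2.05 ± 0.41, SE, adjusted p = 0.044). CG9287, an esterase relative on the opposite strand of Glt, moved with it (2.51 ± 0.43, SE, adjusted p = 0.015), and because the sources do not say whether counting used strand, reads of the pair cannot be told apart. Nepl17, a neprilysin-like metallopeptidase that overlaps CG33203 on the other strand, had 12.3 to 47.3 CPM with PntP1 (median 36.7) and 0 to 15.9 CPM without (median 3.40). Its log2 fold change was 2.98 ± 0.55 (SE, adjusted p = 0.023), and the call was lost without AopACT replicate 3 (adjusted p = 0.10). The Nepl family, gathered after these values were seen, had 17 tested genes, of which only Nepl17 was called and 15 were above 0 (median log2 fold change 0.77). The trypsin-like protease CG30002 had 8.01 to 89.1 CPM with PntP1 and 0.668 to 32.7 CPM without (2.38 ± 0.50, SE, adjusted p = 0.057), with Foxo flies at 32.7, 8.20 and 18.6 CPM inside the range of the libraries with PntP1. That call was lost in 9 of 18 omissions of a library.

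BomBc3, one of the Bomanin peptides that Toll signalling induces in the fat body, had 12.8 to 164 CPM with PntP1 (median 47.3) and 2.79 to 19.3 CPM without (median 4.87). The overlap came from the Foxo libraries at 18.1 and 19.3 CPM, and the log2 fold change was 2.60 ± 0.54 (SE, adjusted p = 0.054); the call was lost in 7 of 18 omissions of a library. Achl had 2.50 to 42.7 CPM with PntP1 (median 14.0) and 0.623 to 10.4 CPM without (median 1.42), the AopACT libraries being the high ones without PntP1 (2.54 ± 0.45, SE, adjusted p = 0.018). Cyp4ac1, a cytochrome P450 whose gene overlaps tkv on the other strand, had 2.18 to 45.5 CPM with PntP1 (median 10.8) and 1.80 to 4.68 CPM without (median 2.61), highest in PntP1 flies at 27.6 and 45.5 CPM (1.84 ± 0.37, SE, adjusted p = 0.044). Of the 44 genes, 15 overlapped another measured gene on the opposite strand.

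Further genes that rose are given here after their values were seen. CG30083, a trypsin-like protease gene, had 4.84 to 16.4 CPM with PntP1 (median 5.84) and 0 to 3.43 CPM without (median 1.09), with a log2 fold change of 2.98 ± 0.44 (SE, adjusted p = 0.0035). Atet, an ABC transporter, had 32.7 to 59.1 CPM with PntP1 (median 43.4) and 11.5 to 31.8 CPM without (median 23.3), with a log2 fold change of 1.01 ± 0.21 (SE, adjusted p = 0.058). Both sets of values were free of overlap, although that of Atet was small in fold. Gycalpha99B, a subunit of soluble guanylyl cyclase that overlaps Obp99c on the other strand, had 6.76 to 30.0 CPM with PntP1 (median 13.7) and 2.67 to 7.69 CPM without (median 5.81), with a log2 fold change of 1.40 ± 0.24 (SE, adjusted p = 0.017). Its uninduced medians, 15.2 CPM with the transgene and 16.8 CPM without, lay above both induced medians. Obp83cd and Obp83ef, which overlap each other and encode odorant-binding proteins, rose by 1.84 ± 0.37 and 1.43 ± 0.32 (SE, log2, adjusted p = 0.048 and 0.081). They were the only calls among 16 odorant-binding protein genes, of which 9 were above 0. The xylulokinase gene CG3534 had 54.3 to 98.3 CPM with PntP1 (median 76.7) and 36.7 to 66.4 CPM without (median 45.8), with a log2 fold change of 0.70 ± 0.16 (SE, adjusted p = 0.098), a call lost in 14 of 18 omissions of a library. The uridine phosphorylase gene CG17224 had 35.8 to 103 CPM with PntP1 (median 72.4) and 18.1 to 43.0 CPM without (median 34.6), with a log2 fold change of 1.09 ± 0.24 (SE, adjusted p = 0.072), and lost its call in 12 of the 18. Obp83ef lost its call in 12 as well, Atet in 6 and Obp83cd in 4.

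**Figure D1:**
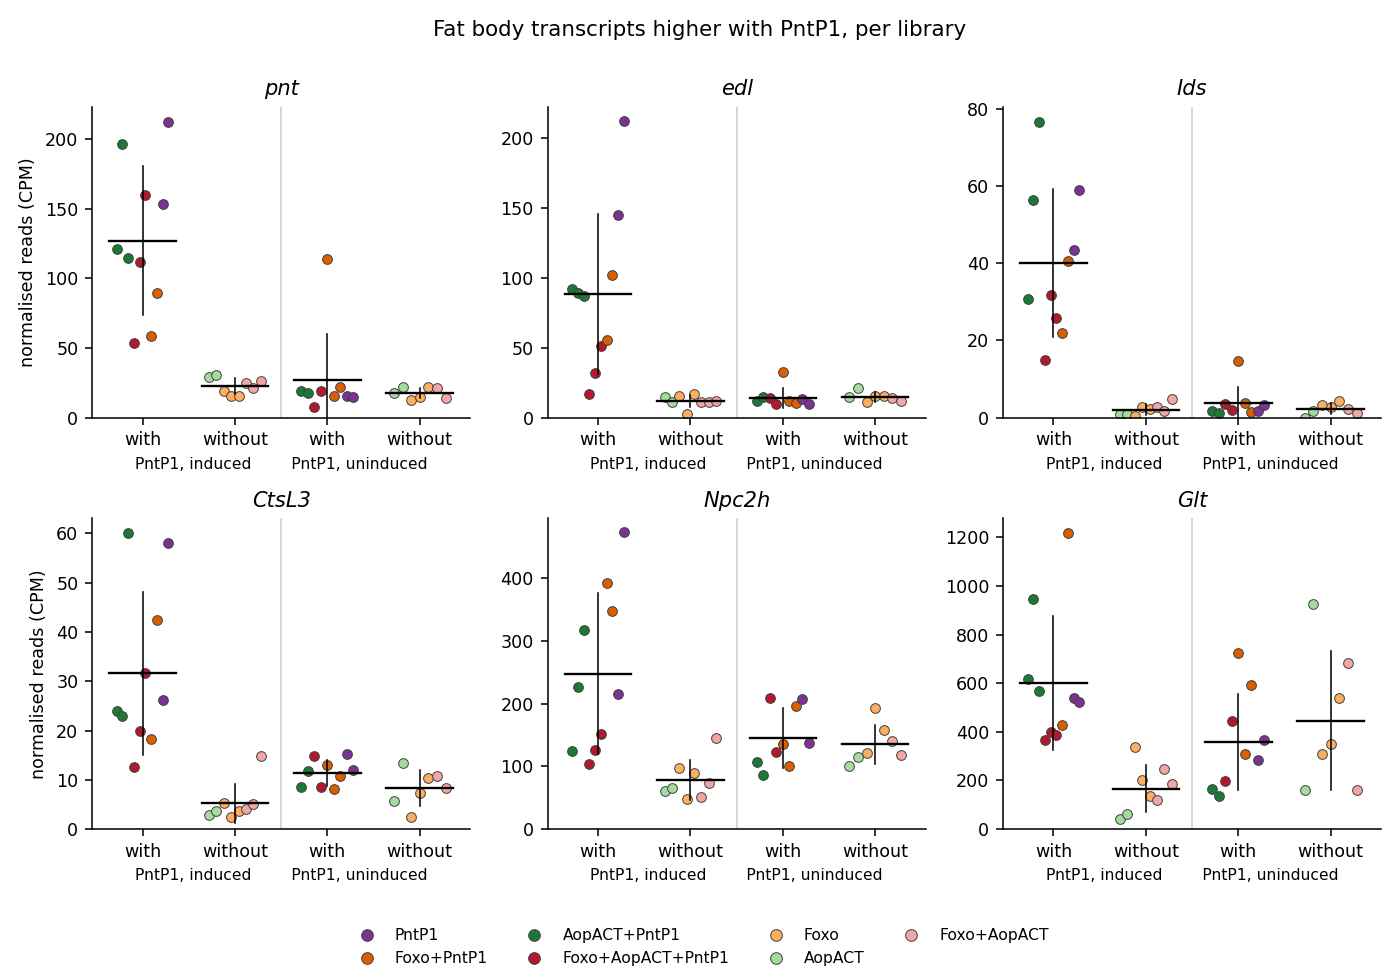
Levels of pnt, edl, Ids, CtsL3, Npc2h and Glt in CPM (linear axis) in each fat body library, with and without PntP1, induced at left and uninduced at right; each point is a library coloured by genotype, and lines give the mean and SD of each set. In induced libraries pnt, edl, Ids and Glt with PntP1 lie wholly above those without, while in uninduced libraries one point of the library labelled Foxo+PntP1 replicate 1 stands high for pnt (114 CPM), edl (32.7 CPM) and Ids (14.6 CPM).

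The same contrast in uninduced fat bodies, where flies carried the transgene but were not fed RU486 (9 libraries with PntP1, 7 without), gave 3 higher genes (0.0328% of 9151) and 1 lower (0.0109%). With Foxo+AopACT+PntP1 replicate 2 left out there were 8 calls, and with the library labelled Foxo+PntP1 replicate 1 left out there were 3 higher and 1 lower, as there were without Foxo replicate 1, whose label is crossed with that of its gut. Of the 44 genes, 35 could be tested there, 4 were called and 16 had the same sign. The 3 higher were CG12224, CG3397 and CG18547, and the lower one was CG10799. Uninduced pnt lay at 7.81 to 114 CPM with PntP1 and 12.6 to 21.8 CPM without, the highest being the library labelled Foxo+PntP1 replicate 1 and the next 22.1 CPM (log2 difference 0.40 ± 0.37, SE, adjusted p = 0.80). Uninduced edl lay at 9.43 to 32.7 CPM with PntP1 and 10.9 to 21.4 CPM without, with the same library highest (-0.13 ± 0.28, SE, adjusted p = 0.91).

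The difference between the induced and the uninduced contrast was tested in all 34 fat body libraries. It passed for 4 higher genes (0.042% of 9528), Ids, edl, CG3984 and asRNA:CR45600, and for no lower one (0.0%). Unadjusted p-values under 0.05 were held by 305 higher and 242 lower genes, DESeq2 called 25 higher and 2 lower, and limma voom 52 higher and 17 lower. The induced contrast exceeded the uninduced one by 3.41 ± 0.70 for Ids (SE, log2, adjusted p = 0.096) and by 2.45 ± 0.45 for edl (SE, adjusted p = 0.085). CG3984 and asRNA:CR45600 lie on opposite strands of 1 locus and had nearly the same differences, 1.59 ± 0.32 and 1.59 ± 0.32 (SE, adjusted p = 0.096 each). Omission of any one of 20 of the 34 libraries left 0 calls, so these 4 genes stood close to the threshold. Without the library labelled Foxo+PntP1 uninduced replicate 1 there were 6 calls, and the adjusted p was 0.0085 for Ids and 0.0034 for edl, while without the library labelled Foxo uninduced replicate 1 there was 1 call. In this test 40 of the 44 genes had the sign of their induced contrast. The induced libraries by which they were called are part of the test, which favours that sign.

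**Figure D2:**
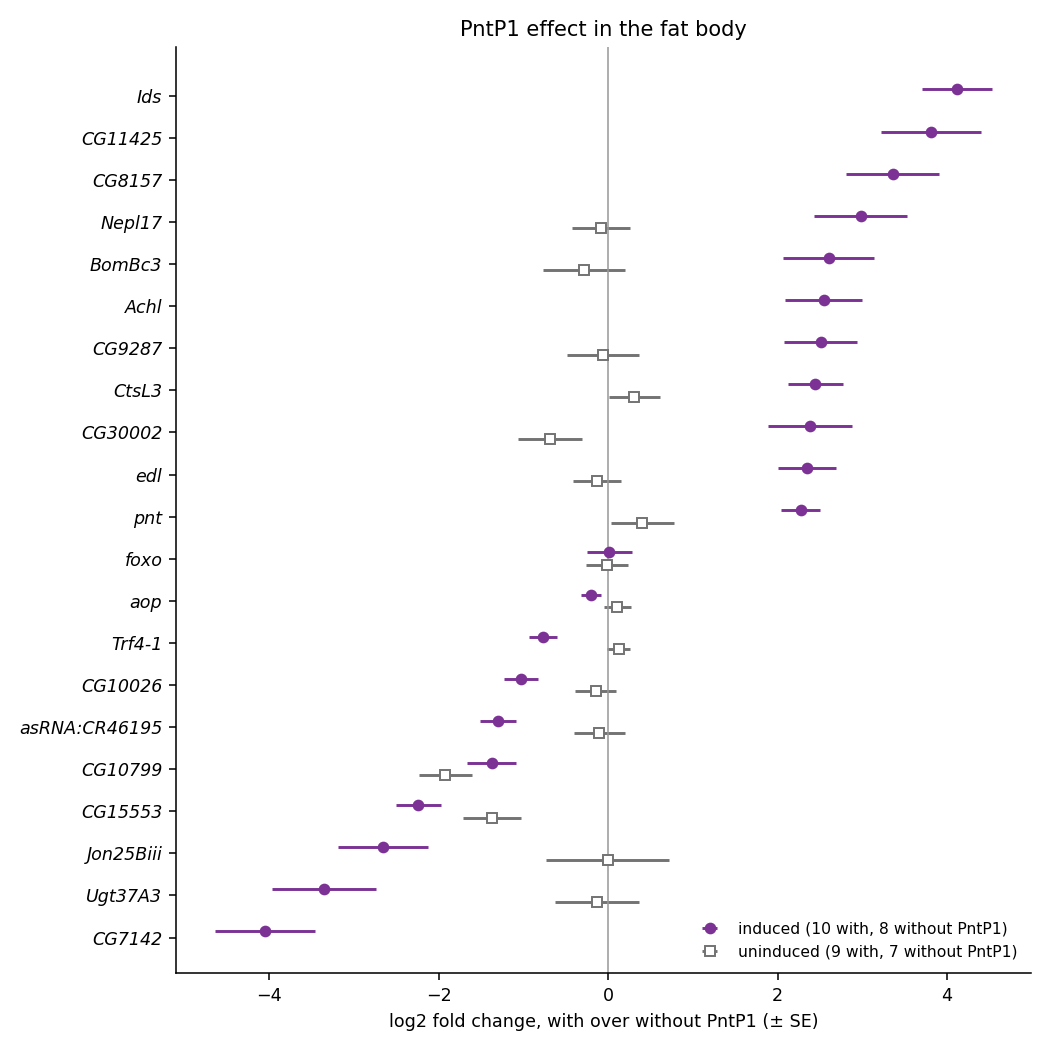
Log2 fold changes (± SE) of PntP1 in the fat body for the driven factors and the called genes with the highest and lowest fold changes other than CG3397 and CG12224, which were at or near 0 without PntP1 in both feeding states, with over without PntP1, in induced libraries (filled circles, 10 with and 8 without) and in uninduced libraries (open squares, 9 with and 7 without, where the gene was tested). Induced values run from 4.12 for Ids to -4.05 for CG7142, and of the genes drawn CG10799 passed the test in uninduced libraries as well, as did CG3397, CG12224 and CG18547, which are not drawn.

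Of the 34 genes that rose, 28 had a median with PntP1 above both uninduced medians, and 26 had a median without PntP1 below both, with 23 meeting both descriptions. BomBc3 was among these 23, with medians of 47.3 CPM in induced libraries with PntP1 and 4.87 CPM in induced libraries without, beside 31.0 CPM in uninduced libraries with the transgene and 31.1 CPM in those without. Glt had medians of 531 and 161 CPM in induced libraries with and without PntP1, beside 310 and 349 CPM in uninduced ones with and without. Ids and edl were also among these 23, with induced medians without PntP1 of 1.91 and 11.4 CPM, beside uninduced ones of 1.96 and 12.0 CPM with the transgene and 2.30 and 14.7 CPM without. Of the 10 genes that fell, 9 had a median without PntP1 above both uninduced medians. Genes of both directions were called for a gap between these same induced libraries, which favours uninduced medians that lie inside it. The share over all genes tested was not computed. Ugt37A3 had 2.57 CPM in induced libraries with PntP1 and 17.7 CPM in those without, beside 4.53 and 4.87 CPM in uninduced libraries with and without the transgene.

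A run of 3 neighbouring genes of the aldo-keto reductase family on arm 3R set carriers of the PntP1 transgene apart whether or not it had been induced. CG18547 (11978574 to 11980390), CG12224 (11980704 to 11982062) and CG3397 (11983098 to 11984541) lie side by side on the minus strand. CG3397 had 7.28 to 35.2 CPM with PntP1 (median 17.0) and was at 0 in all 8 libraries without, which, against a floor of 3 counts over that group, makes it at least 127.5-fold higher with PntP1. In uninduced libraries it was at least 128.9-fold higher in carriers. CG12224 had 8.51 to 21.4 CPM with PntP1 (median 15.4) and 0 to 0.80 CPM without (median 0), a pooled ratio of 43.0 on 420 and 7 counts (adjusted p = 1.5e-05). Uninduced, it was at least 114.8-fold higher. CG18547 had 15.3 to 35.9 CPM with PntP1 (median 24.9) and 1.80 to 9.87 CPM without (median 6.38), a log2 fold change of 2.03 ± 0.19 (SE, adjusted p = 4.5e-05), and 2.04 ± 0.26 (SE, adjusted p = 0.0051) in uninduced libraries. The difference between those contrasts was -0.04 ± 0.35 (SE, adjusted p = 0.98). The 18 other genes tested within 100 kb on either side had log2 fold changes of -0.93 to 0.34 and adjusted p-values of at least 0.77 in induced libraries. In guts CG18547 had 106 ± 32.2 CPM with PntP1 and 173 ± 23.0 CPM without (SD, n = 10 and 7), so its fat body contrast exceeded that of the gut by 2.69 ± 0.22 (SE, log2, adjusted p = 4.3e-09).

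**Figure D3:**
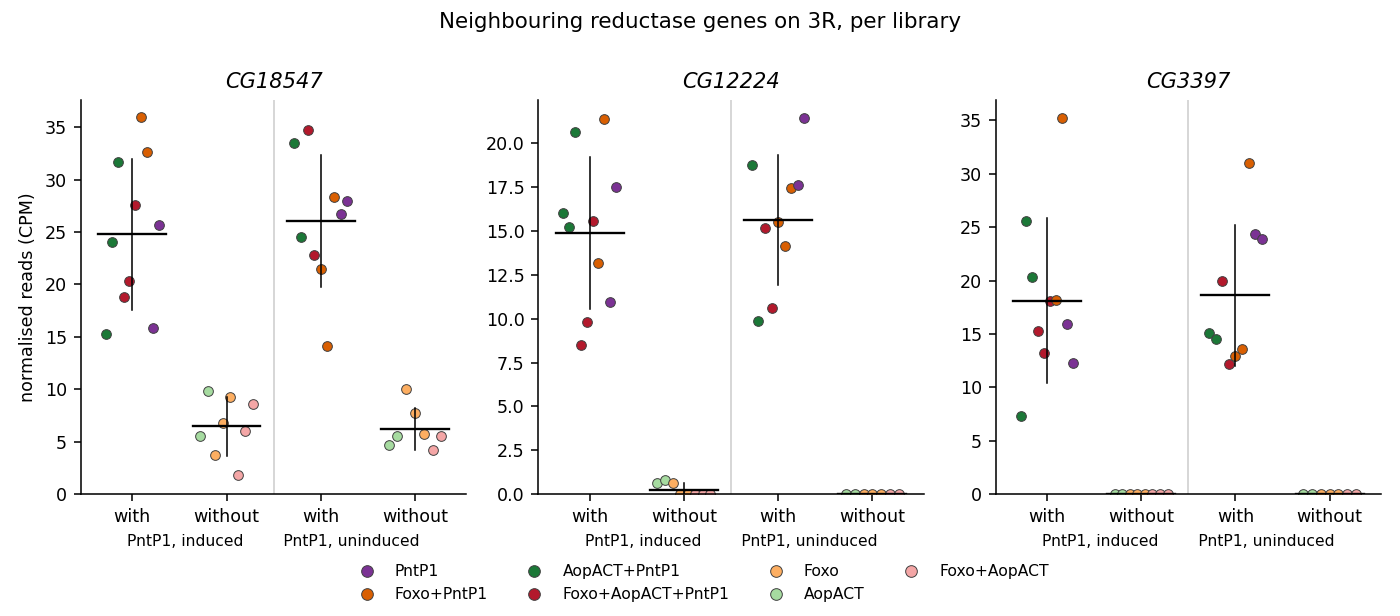
Levels of the neighbouring genes CG18547, CG12224 and CG3397 on arm 3R in CPM (linear axis) in each fat body library, with and without PntP1, induced and uninduced; points are libraries coloured by genotype, lines the mean and SD. All libraries with the transgene lie above all libraries without it in both feeding states, and CG3397 is at 0 in every library without it.

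Among genotypes without PntP1, AopACT flies had the highest mean level for all 10 genes that fell. CG7142, a serine protease gene that overlaps eIF1A on the other strand, had 0 to 2.61 CPM with PntP1 (median 0.464) and 0.482 to 58.1 CPM without (median 4.96), with a log2 fold change of -4.05 ± 0.59 (SE, adjusted p = 0.0035). AopACT+PntP1 flies had 0.728, 1.52 and 1.16 CPM, against 15.8 and 58.1 CPM in AopACT flies. Ugt37A3, a UDP-glycosyltransferase of the kind that conjugates small lipophilic molecules, had 0 to 9.58 CPM with PntP1 (median 2.57) and 0.482 to 194 CPM without (median 17.7), with a log2 fold change of -3.35 ± 0.61 (SE, adjusted p = 0.023). AopACT+PntP1 flies had 2.91, 3.43 and 9.58 CPM, against 112 and 194 CPM in AopACT flies, and Foxo+AopACT+PntP1 flies 1.5, 0 and 4.76 CPM, against 28.8, 17.4 and 18.0 CPM in Foxo+AopACT flies. Beside Foxo alone it had 1.82 and 3.77 CPM in Foxo+PntP1 flies, against 2.81, 0.482 and 2.87 CPM in Foxo flies, with a log2 difference of 0.55 ± 0.81 (SE, adjusted p = 0.72). The contrast of all libraries lost its call without AopACT replicate 3 (adjusted p = 0.20).

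CG15553 had 1.36 to 22.6 CPM with PntP1 (median 6.16) and 3.38 to 73.6 CPM without (median 28.0), with a log2 fold change of -2.24 ± 0.26 (SE, adjusted p = 0.00028). It fell beside AopACT and beside both partners, and was -1.61 ± 0.56 (SE, log2, adjusted p = 0.20) beside Foxo. Foxo+AopACT+PntP1 flies had 5.01, 4.74 and 6.67 CPM, against 45.4, 31.1 and 25.0 CPM in Foxo+AopACT flies. CG10799 had 10.5 to 48.8 CPM with PntP1 (median 31.5) and 18.8 to 95.7 CPM without (median 59.6), with a log2 fold change of -1.38 ± 0.29 (SE, adjusted p = 0.059). It was lower in uninduced carriers as well (-1.93 ± 0.31, SE, adjusted p = 0.062), but the induced call was lost in 9 of 18 omissions of a library and the uninduced one in 10 of 16 (highest adjusted p 0.25). Jon25Biii, a Jonah protease of the midgut, had 0 to 8.25 CPM with PntP1 and 2.89 to 65.9 CPM without (-2.66 ± 0.53, SE, adjusted p = 0.044). Of 18 tested gut digestive markers, 3 were above 0 (median -0.42), 5 had an unadjusted p under 0.05, all of them lower, and Jon25Biii was the only one that edgeR called, against 3 with DESeq2 and 2 with limma voom, all lower. Their summed level was 404 to 2248 CPM with PntP1 and 408 to 1868 CPM without, and its part in the lower genes was not tested. Of 10 Jonah genes, a family gathered after these values were seen, 2 fell and 2 were above 0 (median -1.39). The noncanonical poly(A) polymerase Trf4-1 and asRNA:CR46195 on its other strand fell together (-0.77 ± 0.17 and -1.30 ± 0.22, SE, adjusted p = 0.072 and 0.013), the call of Trf4-1 being lost in 13 of 18 omissions. CG10026, of the CRAL-TRIO lipid-binding family, fell by 1.03 on the log2 scale (adjusted p = 0.044).

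**Figure D4:**
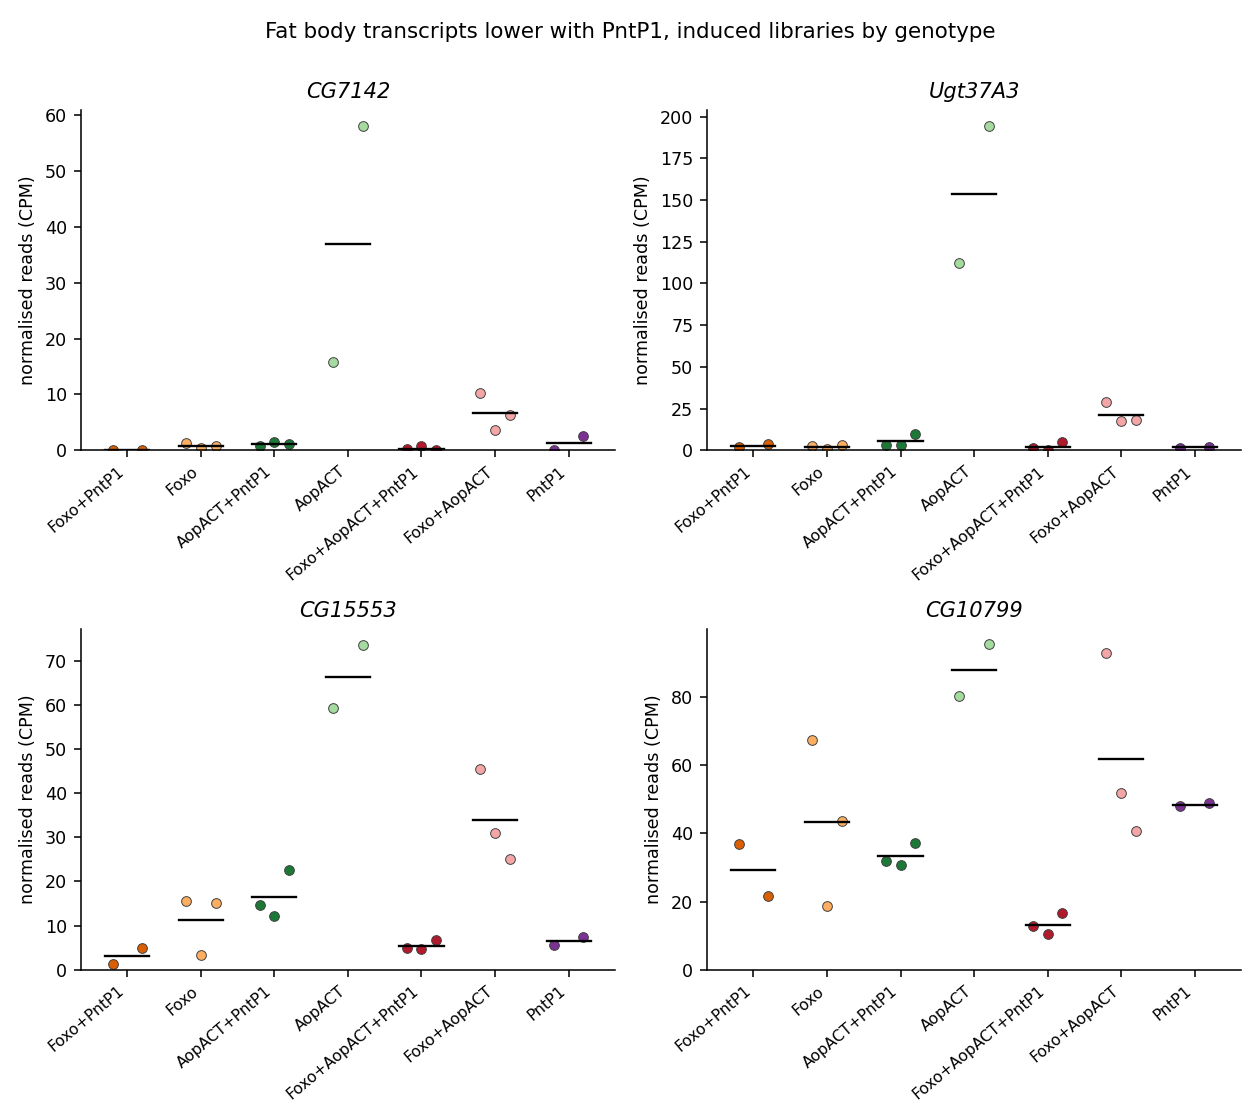
Levels of CG7142, Ugt37A3, CG15553 and CG10799 in CPM (linear axes) in the induced fat body libraries of each genotype, each genotype with PntP1 left of its partner without it and PntP1 alone at the right; points are libraries and lines are means. AopACT flies have the highest mean of each gene, with 112 and 194 CPM for Ugt37A3, against at most 9.58 CPM in AopACT+PntP1 libraries.

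The contrast was then read in the 3 matched pairs of genotypes. Foxo+PntP1 differed from Foxo in 21 higher genes (0.221% of 9505) and 1 lower (0.0105%), AopACT+PntP1 from AopACT in 132 higher (1.39%) and 62 lower (0.652%), and Foxo+AopACT+PntP1 from Foxo+AopACT in 9 higher (0.0947%) and 26 lower (0.274%). Without the replicate block the Foxo pair had 43 calls and the Foxo+AopACT pair 11. Leaving out one library gave from 4 calls (without Foxo replicate 2) to 2062 (without Foxo replicate 1) in the Foxo pair, from 4 (without AopACT replicate 3; 7 without AopACT replicate 2) to 719 (without Foxo replicate 1) in the AopACT pair, and from 1 (without replicate 2 of either genotype) to 374 (without Foxo replicate 1) in the Foxo+AopACT pair. Of the 44 genes, 43 had one sign in all 3 pairs. Beside AopACT 30 of them were called, beside Foxo 10 and beside both 10, and 5 were called in every pair, namely pnt, Ids, CG3397, CG12224 and CG18547. Of the 34 genes that rose, 19 were lowest in AopACT flies among the genotypes without PntP1, and 25 were lowest in Foxo+AopACT+PntP1 flies among those with it. The counts of signs and of lowest genotypes come from the libraries by which the 44 genes were called. Agreement in sign is favoured by that choice, and shares over all genes were not computed. Leaving out the AopACT genotype, an alternative added after seeing the data, left 10 calls (9 higher, 1 lower), all 10 among the 44, and leaving out the Foxo+AopACT+PntP1 genotype gave 1632 (739 higher, 893 lower), with 42 of the 44 among them.

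Whether AopACT changed the effect of PntP1 was tested as the effect beside Foxo and AopACT minus that beside Foxo. It differed in 1096 higher genes (11.5%) and 1086 lower (11.4%). CG8665, the cytosolic formyltetrahydrofolate dehydrogenase, was among the genes with the lowest p, with 178, 93.4 and 270 CPM in Foxo+AopACT+PntP1 flies, against 270, 202 and 494 CPM in Foxo+AopACT flies, and 50.5 and 162 CPM in Foxo+PntP1 flies, against 30.5, 10.4 and 41.6 CPM in Foxo flies (difference -2.88 ± 0.38, SE, log2, adjusted p = 0.0095). CG5246, a trypsin-like protease, had 47.8, 36.2 and 47.3 CPM in Foxo+AopACT+PntP1 flies, against 233, 248 and 183 CPM in Foxo+AopACT flies, and 268 and 257 CPM in Foxo+PntP1 flies, against 62.6, 48.7 and 23.6 CPM in Foxo flies (-4.88 ± 0.65, SE, adjusted p = 0.0095). CG3348, which overlaps Hmu, had a difference of -3.32 ± 0.39 (SE, adjusted p = 0.0076). For each of these genes the log2 fold change of PntP1 was above 0 beside Foxo and below 0 beside Foxo and AopACT. CG3348 and CG5246 were called in both pairs, and CG8665 only beside Foxo. They were named for the lowest p of this difference, which favours opposite signs.

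Whether Foxo changed the effect was tested as the effect beside Foxo and AopACT minus that beside AopACT, which differed in 881 higher genes (9.27%) and 597 lower (6.28%). Cipc, the relative of a mammalian inhibitor of the clock factor CLOCK, had 26.3, 17.9 and 32.7 CPM in Foxo+AopACT+PntP1 flies, against 62.0, 53.1 and 82.8 CPM in Foxo+AopACT flies, and 48.8, 85.7 and 85.6 CPM in AopACT+PntP1 flies, against 23.0 and 27.7 CPM in AopACT flies (-2.99 ± 0.39, SE, adjusted p = 0.020). Atg17, a scaffold of the kinase complex that starts autophagy, had 193, 188 and 172 CPM in Foxo+AopACT+PntP1 flies, against 291, 351 and 253 CPM in Foxo+AopACT flies, and 323, 331 and 344 CPM in AopACT+PntP1 flies, against 137 and 102 CPM in AopACT flies, which gave a difference of -2.21 ± 0.31 (SE, adjusted p = 0.030). For Miox, which oxidises myo-inositol, the difference was -2.82 ± 0.47 (SE, adjusted p = 0.036). In all 3 genes the log2 fold change of PntP1 was above 0 beside AopACT and below 0 beside Foxo and AopACT. Cipc was called in both pairs, and Atg17 and Miox only beside AopACT. Their choice by the lowest p of this difference favours opposite signs. Of the 44 genes, 11 differed in this test and 7 in the previous one. Ids, with a difference of -3.18 ± 0.71 (SE, adjusted p = 0.041), had a PntP1 effect of 2.98 ± 0.42 beside both partners and 6.16 ± 0.57 beside AopACT alone (SE).

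Both of these counts moved with the libraries used, and germline transcripts also differed between the genotypes compared. Leaving out one library gave between 3 and 3430 calls in the first test, with 3 without Foxo+AopACT+PntP1 replicate 2 and 7 without Foxo replicate 2. In the second it gave between 0 and 2335, with 0 without Foxo+AopACT+PntP1 replicate 1 or AopACT replicate 3 and 1 without Foxo+AopACT replicate 2 or AopACT+PntP1 replicate 3. Of 15 germline markers, such as vas and osk, 13 were higher in the first test (median 2.82, log2) and 11 in the second (median 2.83), beside medians of -0.14 and -0.03 over all genes tested. The summed level of germline markers was 2933, 2799 and 2054 CPM in Foxo+AopACT+PntP1 libraries, against 1509, 860.2 and 899.9 CPM in Foxo+AopACT libraries. It was 979 and 800.7 CPM in Foxo+PntP1 libraries, against 1449, 3677 and 2973 CPM in Foxo libraries, and 1259, 907.3 and 292.5 CPM in AopACT+PntP1 libraries, against 1864 and 2178 CPM in AopACT libraries. With the mean germline marker level of each library as a covariate, added after seeing the data, both tests called 0 genes (edgeR; unadjusted p under 0.05 for 213 and 309 genes), whereas without it limma voom called 1213 and 2499. Because the germline level differed between these genotypes, neither test with that covariate can tell germline content from a partner's change of the PntP1 effect. In the contrast of all induced libraries the same covariate gave 106 calls (74 higher, 32 lower), with 43 of the 44 among them.

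**Figure D5:**
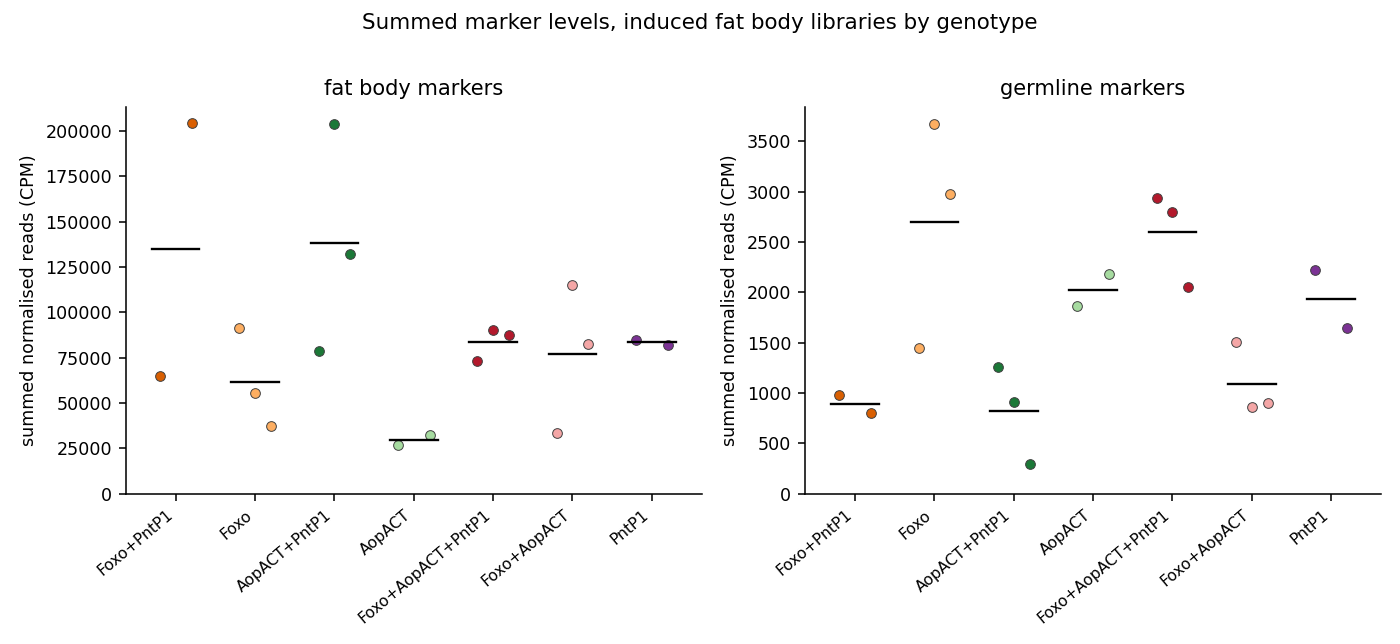
Summed CPM (linear axes) of 12 fat body markers and of 15 germline markers in the induced fat body libraries of each genotype, each genotype with PntP1 left of its partner without it and PntP1 alone at the right; points are libraries and lines are means. Germline markers are higher in Foxo+AopACT+PntP1 libraries (2054 to 2933 CPM) than in Foxo+AopACT libraries (860.2 to 1509 CPM), and the AopACT libraries hold the lowest sums of fat body markers.

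In induced guts (10 libraries with PntP1, 7 without) the same contrast was measured, and its difference from that of the fat body passed for 79 genes that were higher in the fat body contrast (0.842% of 9380) and 66 that were lower (0.704%). Libraries of both organs were taken as separate samples, so any pairing of gut and fat body pools from the same flies was not modelled. Leaving out one library gave from 72 calls (without gut Foxo replicate 2) to 194, with 109 (54 higher, 55 lower) without the library labelled gut Foxo+PntP1 replicate 1 and 78 to 89 calls without gut Foxo replicates 1 or 3, gut Foxo+PntP1 replicate 3, or fat body AopACT replicates 2 or 3. Of the 44 genes, 33 could be tested, 13 were called and 25 had the sign of their fat body change. The fat body libraries by which they were called are part of this difference, which favours that sign. Ids differed by 3.94 ± 0.62 (SE, log2, adjusted p = 0.00071), and in guts it lay at 1.19 ± 0.41 CPM with PntP1 and 1.08 ± 0.54 CPM without (SD, n = 10 and 7). Cyp4ac1 differed by 3.55 ± 0.41 (SE, adjusted p = 7.2e-06), with 28.3 ± 9.25 CPM in guts with PntP1 and 90.9 ± 14.7 CPM in guts without, the opposite direction to the fat body. asRNA:CR44054, which overlaps CG15199 and ssp7, differed by -5.07 ± 0.62 (SE, adjusted p = 2.1e-05). It had 671 ± 525 CPM in guts with PntP1 and 7.37 ± 4.12 CPM in guts without, beside 73.8 to 365 CPM in fat bodies with PntP1 and 54.9 to 166 CPM in fat bodies without. For edl the contrasts of the organs differed by -0.87 ± 0.58 (SE, adjusted p = 0.68), with 118 ± 107 CPM in guts with PntP1 and 7.71 ± 2.81 CPM in guts without, and for pnt by -0.73 ± 0.41 (SE, adjusted p = 0.58), with 475 ± 347 and 51.6 ± 16.3 CPM in guts with and without.

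Gene lists of pathways and organelles gave few calls, beside 0.366% higher and 0.108% lower over all genes and a median log2 fold change of -0.02. Cytosolic ribosomal protein genes were above 0 in 84 of 84 cases with a median of 0.39, and 0 passed the test with edgeR, DESeq2 or limma voom, although 26 had an unadjusted p under 0.05 (edgeR); the median was 0.17 with limma voom. Nuclear genes of the respiratory chain were above 0 in 64 of 67 cases with a median of 0.15 (-0.02 with limma voom), and 0 passed with edgeR and DESeq2 and 1 with limma voom, while 2 had an unadjusted p under 0.05 (edgeR). Of 24 antimicrobial peptides and Bomanins, BomBc3 was the only call and 19 were above 0 (median 0.54), but the median was -0.10 with limma voom and -0.16 without the Foxo genotype. Of 31 genes of the Toll and Imd pathways, 26 were above 0 with a median of 0.15, 0 passed with edgeR, DESeq2 or limma voom, and 1 had an unadjusted p under 0.05 (edgeR). These directions did not hold in every matched pair. Beside Foxo and AopACT together, the 4 lists in this order were above 0 in 50 of 84, 14 of 67, 4 of 25 and 9 of 31 genes. Their medians there were 0.036, -0.175, -0.77 and -0.325. Beside Foxo they were 0.612, 0.64, 1.217 and 0.638, and beside AopACT 0.58, 0.137, 1.284 and 0.229.

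Of 14 genes in the list of extracellular matrix and proteases, 12 were above 0 (median 0.40), 5 of them with an unadjusted p under 0.05. With edgeR and limma voom 0 passed, and with DESeq2 3. The median was 0.053 without Foxo+PntP1 replicate 3. In the matched pairs it was 0.818 beside Foxo, 0.642 beside AopACT and 0.055 beside both. SPARC, a collagen-binding basement membrane protein named here after its values were seen, had 162 to 802 CPM with PntP1 (median 324) and 63.6 to 267 CPM without (median 109), with a log2 difference of 1.52 ± 0.41 (SE, adjusted p = 0.21). Of 12 fat body markers, 9 were above 0 (median 0.56), with log2 fold changes from -1.797 to 1.805. Unadjusted p-values under 0.05 (edgeR) were held by 3 that were higher and 1 that was lower. With edgeR and limma voom 0 passed, and with DESeq2 1. The median of these markers was 0.891 beside Foxo, 1.358 beside AopACT and -0.367 beside both. The yolk protein gene Yp3, chosen in the same way, had 5507 to 40020 CPM with PntP1 (median 8783) and 710.8 to 8372 CPM without (median 3954), with a log2 difference of 1.80 ± 0.60 (SE, adjusted p = 0.48). Yp3 stood at the upper end of the range of the 12 markers, and the marker at the lower end (-1.797) is not described here.

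Of 31 genes of EGFR, FGF receptor and Ras/MAPK signalling, edl was the only call and 12 were above 0 (median -0.08). The feedback inhibitor aos had 11.2 to 22.6 CPM with PntP1 and 5.55 to 16.8 CPM without, with a log2 difference of 0.35 ± 0.20 (SE, adjusted p = 0.9999). Of 70 cytochrome P450 genes, Cyp4ac1 was the only call with edgeR (median 0.03), where DESeq2 called 2 higher and 1 lower and limma voom 1 higher and 2 lower. Lists of insulin and TOR signalling (26 genes), of lipid droplets, lipolysis and beta-oxidation (22), of lipid synthesis and lipoproteins (27) and of sugar, trehalose and glycogen metabolism (29) had 0 calls with edgeR and medians between -0.07 and 0.10, with 4, 2, 2 and 0 unadjusted p-values under 0.05. DESeq2 called 0, 1, 1 and 0 of their members and limma voom 0, 2, 1 and 1, all lower. The matched pairs differed in sign. In the same order, the medians of these lists were 0.13, 0.654, 0.879 and 0.835 beside Foxo, and 0.301, 0.102, 0.309 and 0.301 beside AopACT. Beside both partners they were -0.395, -0.762, -0.613 and -0.541. Medians over all genes tested were 0.073, -0.079 and -0.035 in these pairs. Of 15 germline markers and 18 ovary and follicle cell markers 0 passed with edgeR, with medians of -0.26 and -0.38 that were 0.55 and 2.12 with limma voom. Of these, 0 and 3 had an unadjusted p under 0.05, DESeq2 called 0 and 1, and limma voom 0 and 0. Markers of muscle, oenocytes, haemocytes, neurons and Malpighian tubules had medians of 0.06 to 0.24 over 14, 6, 9, 8 and 7 genes, and 0 passed with edgeR, DESeq2 or limma voom, 1 neuronal gene having an unadjusted p under 0.05. Of 13 genes of serine, folate and methionine metabolism, 0 passed with edgeR, 1 with DESeq2 and 2 with limma voom (median -0.07, 2 with an unadjusted p under 0.05). Mitochondrial ribosomal proteins, mitochondrially encoded transcripts, the proteasome and autophagy had medians of -0.02 to 0.08 over 72, 27, 33 and 19 genes, with 0 calls by any of the 3 tools and 0 unadjusted p-values under 0.05.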

How the data were processed

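Poly(A) RNA of fat body and gut pools was sequenced with molecular identifiers. The authors removed duplicate reads by identifier with Je, aligned with HISAT2 to release 6 of the fly genome and deposited raw counts per gene from featureCounts; the submitters' processing notes also name SAMtools and DESeq2, and their versions are not given in the sources used here. The fat body table held 11069 genes, and the lowest sum of a gene over its libraries was 34 reads. The floor of 3 counts covers counting error only. Standard errors come from fits that estimate the spread between libraries, and SDs are taken between libraries. The authors' comparison columns and variance-stabilised values were not used. Of 73 labelled libraries 70 had a column, and 3 of the 21 labelled induced fat body libraries were not analysed here.

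Counts were tested with edgeR 4.0.16 in R 4.3.3 (quasi-likelihood, TMM scaling, filterByExpr with a minimum count of 10, Benjamini-Hochberg adjustment over all genes tested, calls under 0.1). The design held the block (3 blocks, taken from the deposited table; replicate numbers follow the block in the induced fat body libraries but not in all uninduced and gut libraries) and the presence of Foxo, of AopACT and of PntP1. The matched pairs came from 1 fit with a mean per genotype and the block, the interaction from all fat body libraries, and the gut comparison from the induced libraries of both organs. Standard errors are the log2 fold change divided by the square root of F. Coordinates are those of the Ensembl annotation of release 6. Over 46 pairs of libraries of the same block and other genotypes, deviations from the genotype means correlated by a median of 0.109 (-0.497 to 0.557), against -0.053 over 92 pairs of other blocks. Scripts were tested on simulated data.

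Alternatives were DESeq2 1.42.0, limma 3.58.1 voom with quality weights, DESeq2 size factors (RLE), no filter, no block, the mean of the matched differences, all 34 fat body libraries in 1 fit, and omission of each library or genotype. The omission of single genotypes other than PntP1 alone and the germline covariate were chosen after seeing the data. The members and gene lists were chosen with earlier results of these data known. The genes named by rule were pnt, aop and foxo, then, of the genes called that averaged 5 CPM or more, the 12 highest and 12 lowest log2 fold changes, up to 3 called genes of each list, the 6 lowest p of the interaction and the 3 lowest p of each other test of a difference, 35 genes in all. Npc2h, Glt, CG30083, Atet, Pka-R1, Gycalpha99B, CG3534, CG17224, SPARC, Yp3 and aos were named after their values were seen. Promoter sequences were not analysed here.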

Additional observations from a re-analysis of the deposited data

Results flagged for a closer look

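The highest and lowest library of each set were held against the rest by Dixon's test. That test flags about 1 in 20 sets by chance only where values are normal and of a single population. The sets here pooled genotypes and held CPM that cannot fall below 0, so the rate need not hold. In 33 of 212 sets of libraries (53 genes), the highest or lowest library stood far from the rest by that test. Of these, 6 fell in the library labelled Foxo+PntP1 uninduced replicate 1, which was highest for pnt (113.7 CPM), edl (32.72 CPM), Ids (14.64 CPM), Gycalpha99B (74.04 CPM), CG11425 (6.888 CPM) and CG8157 (6.888 CPM); the next uninduced library with the transgene had 22.11 CPM of pnt. The cause was not tested.

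Among induced libraries with PntP1, AopACT+PntP1 replicate 3 stood high for BomBc3 (164.2 CPM) and Ugt37A3 (9.576 CPM), and Foxo+PntP1 replicate 2 for CG30083 (16.37 CPM) and Gycalpha99B (30.01 CPM). Among induced libraries without PntP1, Foxo replicate 1 stood high for Nepl17 (15.89 CPM), CG3984 (70.12 CPM) and asRNA:CR45600 (71.05 CPM), Foxo replicate 2 was low for edl (2.411 CPM), and Foxo replicate 3 stood apart for Ir76a (5.015 CPM). Foxo+AopACT replicate 2 stood high for CG11425 (5.347 CPM), Foxo+AopACT replicate 3 stood apart for CtsL3 (14.85 CPM) and CG33136 (0.3907 CPM), and AopACT replicate 3 stood high for CG7142 (58.12 CPM) and Jon65Aii (24.0 CPM).

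Among uninduced carriers, PntP1 replicate 1 stood apart for BomBc3 (158.8 CPM), CG10799 (68.75 CPM) and CG4650 (15.58 CPM), and AopACT+PntP1 replicate 1 for Jon25Biii (103.7 CPM), Jon65Aii (19.61 CPM) and CG11912 (41.96 CPM). Among uninduced flies without the transgene, AopACT replicate 2 stood apart for edl (21.42 CPM), CG3984 (121.8 CPM) and CG15203 (76.96 CPM), AopACT replicate 1 for Cipc (68.38 CPM), Foxo+AopACT replicate 1 for CG5246 (490.9 CPM) and CG33136 (0.2088 CPM), and Foxo replicate 3 for CG4650 (0.3855 CPM).

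A second kind of flag marked effects of PntP1 that differed between settings by a test of the difference (log2 values below, edgeR adjusted p under 0.1). The effect differed with induction in 4 genes, namely Ids (3.406), edl (2.449), asRNA:CR45600 (1.587) and CG3984 (1.585). It differed with AopACT beside Foxo in 2182 genes, among them CG3348 (-3.316), CG8665 (-2.88) and CG5246 (-4.885), and with Foxo beside AopACT in 1478, among them Cipc (-2.993), Atg17 (-2.21) and Miox (-2.823). It differed between fat body and gut in 145 genes, among them CG18547 (2.69), Cyp4ac1 (3.546) and asRNA:CR44054 (-5.069). The germline marker sum also differed between the genotypes in the tests of AopACT and of Foxo. With the mean germline marker level as a covariate both tests called 0 genes (edgeR, unadjusted p under 0.05 for 213 and 309 genes). Germline content and genotype cannot be told apart in those fits.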

How the results depend on the processing

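Of 258 counts of calls under alternatives, 138 were within 1.5 times the reported count, and of 529 values of named genes, 453 kept sign and side of the threshold, 59 lost their call, 9 gained one and 8 changed sign. Omissions of single libraries entered these 529 values only as the lowest and the highest log2 value of each gene. Most calls lost or signs changed by such omissions are therefore not in this tally. The 8 sign changes were of foxo in induced fat bodies, which stood near 0: -0.020 without the replicate block, -0.357 with limma voom, -0.168 with the germline covariate, -0.163, -0.209, -0.190 and -0.334 without the genotypes Foxo, AopACT+PntP1, Foxo+PntP1 and AopACT, and from -0.153 to 0.183 with a library left out. Over all 18 omissions of a library, foxo changed sign in 8. CG8665 and Cipc, which were not called in that contrast, changed sign in 4 and 2 of 18 omissions. The 44 calls in induced fat bodies were 41 without the replicate block (37 of the 44 among them), 140 with DESeq2, 102 with limma voom, 134 as the mean of the matched differences, 68 in all 34 libraries, 28 without the genotype with PntP1 alone, 29 at an adjusted p under 0.05, 106 with the germline covariate, and 10, 87, 29 and 1632 without the genotypes AopACT, Foxo+AopACT, AopACT+PntP1 and Foxo+AopACT+PntP1. DESeq2 called 32 genes in uninduced fat bodies, 27 in the interaction, 602, 527 and 486 beside Foxo, AopACT and both, and 274 in fat body minus gut; limma voom called 10, 69, 6 beside Foxo, 1506 beside both, 1213 and 2499 in the tests of a change with AopACT and with Foxo, and 253 in fat body minus gut. Without the replicate block 43 genes were called beside Foxo and 11 beside both. The germline covariate left 2, 6 and 2 calls beside Foxo, AopACT and both, and 0 in the interaction and in both tests of a change with a partner (edgeR, unadjusted p under 0.05 for 290, 213 and 309 genes). Leaving out one library gave 18 to 64 calls in induced and 3 to 8 in uninduced fat bodies, 0 to 13 in the interaction, 4 to 2062, 4 to 719 and 1 to 374 beside Foxo, AopACT and both, 3 to 3430 and 0 to 2335 in the changes with AopACT and with Foxo, and 72 to 194 in fat body minus gut. These causes were not tested. Genes near 0 reads without PntP1 are limited by depth, where 3 counts over the group is the floor.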
